A study of Mus musculus with 90 samples.

Results

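Sox17, Gata2, Hand2, Areg, Bmp2, Il13ra2 and Calb1 are 7 mouse genes known to respond to progesterone, or to act beside its receptor, in the uterus. Each was found in the deposited table by its Entrez Gene identifier (20671, 14461, 15111, 11839, 12156, 16165 and 12307, in that order), so they are 7 of the 20414 genes listed. The genes were chosen from what is known of them, with earlier results of these data at hand, and the name says nothing of how they behave here.

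Progesterone acts through the nuclear receptor Pgr, which binds DNA and turns target genes on or off in the epithelium, stroma and muscle of the uterus. In the estrous cycle, estrus follows the peak of estrogen and ovulation, and diestrus is the phase in which corpora lutea secrete progesterone. Sox17 and Gata2 are transcription factors of uterine epithelium that support Pgr signalling. Hand2 is a transcription factor of the stroma that restrains the growth factor signals the epithelium receives. Areg is a secreted ligand of the EGF receptor, Bmp2 is a secreted ligand that drives decidualization of the stroma, Il13ra2 is a receptor that captures interleukin 13 without passing on its usual signal, and Calb1 is a cytosolic calcium-binding protein.

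RNA of 15 tissues was sequenced from female C57BL/6 mice (C57BL/6J in the study's methods) in estrus and from such mice in diestrus, 3 libraries for each tissue and phase and 90 in all. The labels give an age of 10 weeks, while the study's methods give a younger one, and the phase of each mouse was read from stained vaginal smears. The study also measured serum estrogen and progesterone of mice to help assign the phase. It reports more estrogen in estrus and more progesterone in diestrus. All mice were untreated and of a single strain, and the phases are the only groups within a tissue. The uterus is labelled Womb, vein is not specified further, and brown and white adipose tissue are called BAT and WAT. Levels are FPKM, which divide the fragments of a gene by its length and by the depth of the library, so the levels of different genes can be set side by side. By the study's methods the tissues of a phase were dissected from a common set of mice, so libraries of different tissues share animals. The labels do not say which libraries share a mouse.

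The study's methods state an approximate number of reads per sample, but the table holds no totals of single libraries, whose depth shows only at the low end of the values. In 89 libraries, 2404 to 4820 genes were listed at 0, against 12048 in BAT estrus replicate 3. The 5th percentile of the values above 0 was 0.0365 to 0.1 FPKM in the 89 libraries and 2.72 FPKM in that library, where a 0 says little about a gene. Both identity markers of a tissue were highest in that tissue for 13 of the 15 tissues. The exceptions were Actg2, for which aorta came at rank 5, and Nr2f2, for which vein came at rank 3. Pgr stood between 10.25 and 98.67 FPKM in the 6 uterus libraries, its highest tissue. In uterus estrus replicate 3 the list of ciliated and oviduct epithelium (4 genes, summed FPKM) stood at 2750, against 26.8 to 130 in the other uterus libraries. The squamous epithelium list (8 genes) stood at 2200 in that library and at 3.38 to 69.8 in the others. The ovary estrus replicate 3 library held oviduct markers as well, with Ovgp1 at 1563 FPKM.

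The start sites of 4 of the 7 genes (Gata2 with 2 of them, Hand2, Areg and Il13ra2) were found in the RefSeq promoter table of GRCm38.p6, and the 250 bases before each start were searched. None of the 5 windows held TGTTCT or its other strand AGAACA, the core letters of the element that progesterone and glucocorticoid receptors bind, which 16.1% of all 32851 windows hold. None held the full palindrome of the estrogen response element, present in 0.0639% of all windows. The letters AGATAA, which GATA factors such as Gata2 bind, were searched with their other strand TTATCT after the values had been seen. They occurred in 2 of the windows, those of Hand2 and Il13ra2, and in 9.99% of all windows. The E-box letters CANNTG, which factors of the family of Hand2 bind, occurred 2 times before Hand2, 3 times before Il13ra2 and 2 times before Areg, and 66.2% of all windows hold them. The 2 windows with a GATA match are shown as a description. The motif was searched with the phase values of these genes known, so a match says nothing about those values. Capitals mark the match, which lies 172 bases before the start of Hand2 (chr8:57320733-57320982, plus strand) and 15 bases before that of Il13ra2 (chrX:147429193-147429442, minus strand, printed as the gene reads).
Hand2: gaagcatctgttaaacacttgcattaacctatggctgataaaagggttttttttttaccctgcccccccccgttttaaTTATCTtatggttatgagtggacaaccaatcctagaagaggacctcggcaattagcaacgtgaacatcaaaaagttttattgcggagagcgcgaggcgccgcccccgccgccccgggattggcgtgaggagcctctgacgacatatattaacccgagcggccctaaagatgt
Il13ra2: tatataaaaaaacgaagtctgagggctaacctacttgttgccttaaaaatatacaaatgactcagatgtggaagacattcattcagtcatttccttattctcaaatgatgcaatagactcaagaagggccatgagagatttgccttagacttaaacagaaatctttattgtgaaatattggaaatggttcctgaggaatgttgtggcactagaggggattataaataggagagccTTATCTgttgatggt
A match is only a string of letters and was not tested for binding. Hand2 overlaps Hand2os1 and Sox17 overlaps Gm37587 on the other strand, and the library kit does not mark strand, so reads from the overlapping stretches cannot be told apart.

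In the uterus, 6 of the 7 genes had a lower mean in estrus than in diestrus, and the exception was Areg. Of all genes tested in uterus, 57.3% had a log2 fold change of estrus against diestrus below 0. The 6 include Il13ra2 and Bmp2, which averaged under 1 FPKM in estrus. Calb1, Il13ra2, Hand2, Gata2 and Sox17 differed by more than 1 on the log2 scale. Against the spread among the 3 libraries of a phase, 0 of the 7 genes passed the test. That test was limma on log2(FPKM + 1), run in uterus on 13706 genes that averaged 1 FPKM or more, with Benjamini-Hochberg adjustment. To be called, a gene had to differ by 1 or more on the log2 scale with an adjusted p no higher than 0.05. It called 0 of the 13706 genes (0%), while 512 had an unadjusted p under 0.05. The values of each gene follow in the order of the replicate numbers, which do not pair the libraries.

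Sox17, the factor of uterine glands and lumen, stood at 31.6, 118 and 97.6 FPKM in estrus and at 103, 265 and 132 FPKM in diestrus. The phases overlapped, since estrus replicate 2 lay above diestrus replicate 1. The log2 fold change of estrus against diestrus was -1.09 (SE 0.57, limma adjusted p = 0.897). It was -0.51 without estrus replicate 1, the lowest library, and -0.70 without diestrus replicate 2, the highest.

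Gata2 had 45.7, 107 and 31.1 FPKM in the estrus uteri and 101, 211 and 128 FPKM in the diestrus uteri. Estrus replicate 2 was again the library that reached into the range of diestrus. The means were 61.2 ± 40.1 and 147 ± 57.4 FPKM (SD, n = 3 each), a log2 fold change of -1.37 (SE 0.50, limma adjusted p = 0.897).

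Hand2 stood at 7.68, 16.2 and 6.78 FPKM in estrus and at 17.8, 19.4 and 68.4 FPKM in diestrus, so the phases did not overlap. The gap between them was small, from 16.2 to 17.8 FPKM. Diestrus replicate 3 lay far above all others. The log2 fold change was -1.50 (SE 0.57, limma adjusted p = 0.897), and -0.90 without diestrus replicate 3.

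Areg, the EGF receptor ligand, was near 0 in most uterus libraries, with 0, 0.26 and 8.38 FPKM in estrus and 0.05, 0.58 and 4.74 FPKM in diestrus. The library numbered 3 of each phase carried nearly all of its signal. Its log2 fold change was 0.10 (SE 1.01, limma adjusted p = 0.989), was -0.23 with a pseudocount of 0.1, and took either sign when single libraries were left out, from -0.92 without estrus replicate 3 to 0.82 without diestrus replicate 3.

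Bmp2 was low throughout the uterus, at 0.77, 1.09 and 1.1 FPKM in estrus and at 1.17, 1.39 and 1.31 FPKM in diestrus. The phases did not overlap, yet the difference was small next to its error (log2 fold change -0.21, SE 0.33, limma adjusted p = 0.918).

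Il13ra2 had the widest relative range after Areg, which reached 0, and stood at 0.14, 0.11 and 0.05 FPKM in estrus and at 0.95, 1.47 and 11.9 FPKM in diestrus. Every diestrus library lay above every estrus library, and diestrus replicate 3 lay far above the rest. So low a gene is compressed by adding 1 before the logarithm, and on that scale the difference was -1.85 (SE 0.73, limma adjusted p = 0.897), and with a pseudocount of 0.1 in place of 1 it was -3.79. Without diestrus replicate 3 its mean fell below the filter.

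Calb1, abundant in uterine epithelium, stood at 6.21, 137.05 and 100.04 FPKM in estrus and at 227, 391 and 137.04 FPKM in diestrus. Estrus replicate 2 and diestrus replicate 3 met at the same level, and estrus replicate 1 was lower than any other library. The log2 fold change was -2.31 (SE 1.09, limma adjusted p = 0.897), and -0.97 without estrus replicate 1.

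**Figure D1:**
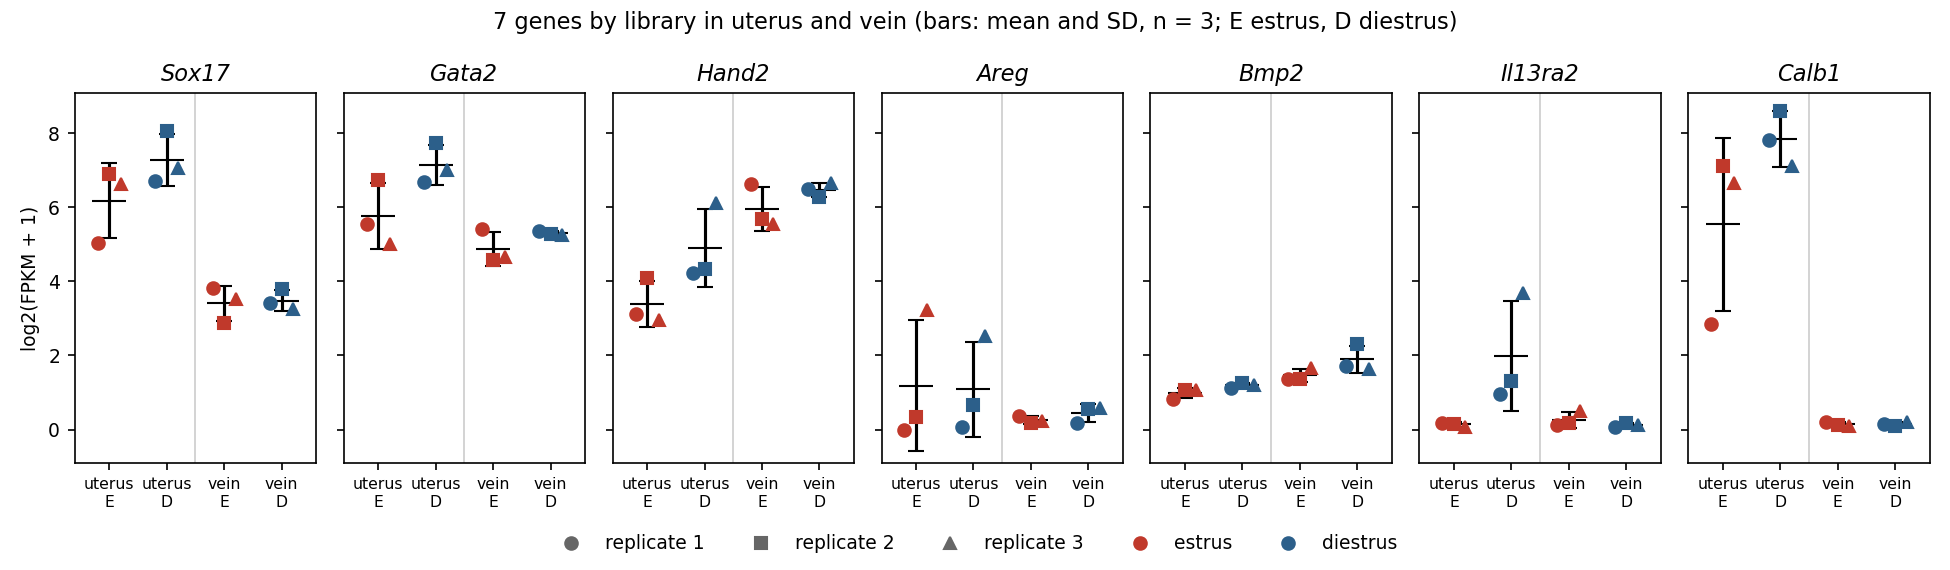
Level of the 7 genes as log2(FPKM + 1) in each library of uterus and vein, estrus in red and diestrus in blue, with marker shapes for the replicate numbers and bars for the mean and SD (n = 3). In uterus the phases are apart for Hand2, Bmp2 and Il13ra2 and overlap for the other 4 genes, and in vein they overlap for all 7.

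Il13ra2 and Bmp2 averaged under 1 FPKM in estrus and passed the filter through diestrus, so their lack of overlap is given as a value only. Of the 5 genes at 1 FPKM or more in both phases, 1 (Hand2) had estrus values that all lay below the diestrus values, which was so for 4.67% of all genes tested in uterus. The exact permutation test of 3 against 3 libraries gave p = 0.1 (two-sided) for Hand2, Il13ra2 and Bmp2, the smallest p it can give, so it cannot reach 0.05. A log2 fold change of -1 or less was found for 4 of the 5 genes, beside 2.75% of all genes. Each of the 4 fell short of -1 without 1 of the uterus libraries. The values closest to 0 were then -0.51 for Sox17, -0.99 for Gata2, -0.90 for Hand2 and -0.97 for Calb1. In limma, an unadjusted p under 0.05 with estrus lower was found for 2 (Gata2 at 0.028 and Hand2 at 0.0336), beside 2.28% of all genes. The members were chosen with earlier results of these data at hand, so these shares are a description and not a test. An adjusted p above the limit does not show that the phases were alike. The call turned in a single fit of all 90 libraries, which takes the spread of a gene from all tissues. That fit called Sox17 (adjusted p = 0.0308), Gata2 (0.0077), Hand2 (0.0317), Il13ra2 (1.02e-07) and Calb1 (0.00171) lower in estrus in uterus, together with 6.66% of the genes. Of the 15 tissues that set this spread, 12 had a mean under 1 FPKM for Il13ra2, 10 for Calb1 and 7 for Hand2. In the limma fit of uterus alone, each of the genes that this fit called had an adjusted p of 0.897.

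The uterus libraries differed in the marker genes of cell types they held. Summed over the endometrial stroma list (5 genes), estrus stood at 549, 203 and 155 FPKM and diestrus at 256, 280 and 760, with the highest sum in diestrus replicate 3, the library highest in Hand2 and Il13ra2. The second highest sum was that of estrus replicate 1, where both genes were low. Vim made up most of the sum, at 486 FPKM in that estrus library and 395 in diestrus replicate 3. Hoxa10 and Hoxa11 in this list are also in the progesterone pathway list and had lower values in estrus without overlap, so the sum is no independent measure of stroma. The endothelium list (6 genes) was also highest there, at 191 FPKM against 26.8 to 87.5 in the other libraries. The simple epithelium list (8 genes) stood at 1070 FPKM in that library and at 1890 to 2680 in the others, with its highest sum in diestrus replicate 2, the library highest in Sox17, Gata2 and Calb1. Estrus replicates 1 and 2 had the same epithelial sum of 1890 FPKM but differed widely in Sox17 and Calb1. Smooth muscle markers (6 genes) were highest in estrus replicate 1, at 5580 FPKM against 1110 to 3460, and this library was lowest in Sox17 and Calb1. Areg was highest in estrus replicate 3, the library with the oviduct and squamous markers. The part of these cell types in the phase differences was not tested. In RNA from whole tissue, fewer cells of a type and less RNA per cell cannot be told apart. Without both libraries numbered 3, the log2 fold changes in uterus were -1.42 for Sox17, -1.06 for Gata2, -0.68 for Hand2, -3.24 for Calb1 and -0.24 for Bmp2, none called. Il13ra2 then stood at 0.14 and 0.11 FPKM in estrus and at 0.95 and 1.47 FPKM in diestrus, below the filter.

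**Figure D2:**
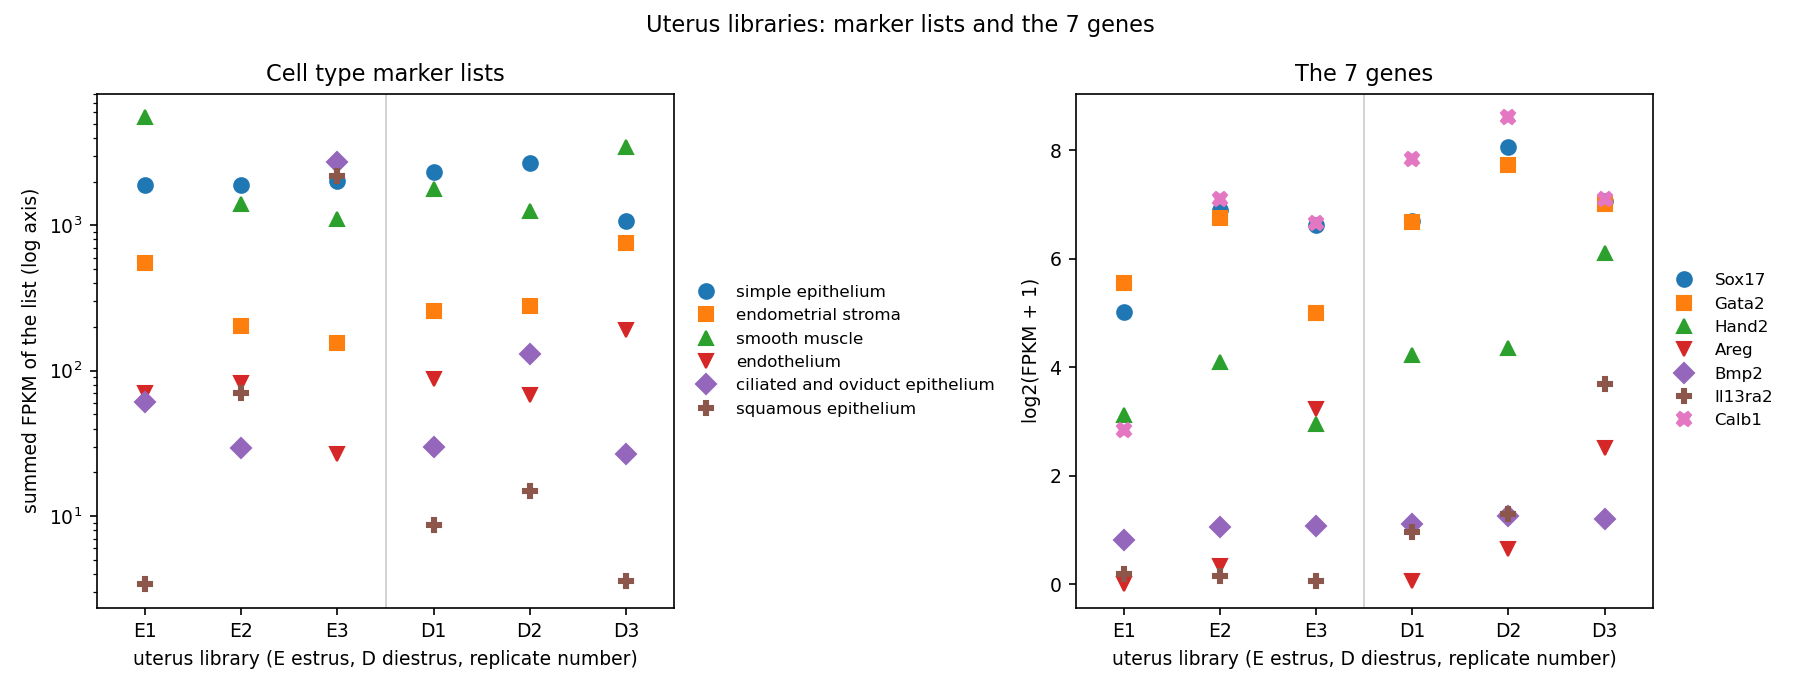
Summed FPKM of 6 cell type marker lists (left, log axis) and log2(FPKM + 1) of the 7 genes (right) in the 6 uterus libraries, E for estrus and D for diestrus with the replicate number. Library E3 holds the oviduct (2750) and squamous (2200) markers and D3 the most stromal ones (760), while Calb1 is lowest in E1 at 6.21 FPKM and Il13ra2 highest in D3 at 11.9 FPKM.

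In vein, Hand2 and Gata2 were abundant and Sox17 moderate, while Areg, Il13ra2 and Calb1 were below the filter. Of the 4 genes tested there, 0 were called, as were 0 of the 13239 genes (0%), of which 1597 had an unadjusted p under 0.05 in limma. Hand2 stood at 98.2, 50.6 and 45.6 FPKM in estrus and at 88.7, 76.5 and 99.2 FPKM in diestrus (log2 fold change -0.51, SE 0.29, adjusted p = 0.443). Gata2 had 41.7, 22.9 and 24.2 FPKM in estrus and 40.1, 37.9 and 37.3 FPKM in diestrus (log2 fold change -0.42, SE 0.22, adjusted p = 0.434). For both genes, estrus replicates 2 and 3 were the lowest libraries. Estrus replicate 1 lay among the diestrus libraries for Hand2 and above all of them for Gata2.

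Sox17, also a gene of arterial endothelium, stood at 13.04, 6.4 and 10.49 FPKM in the estrus veins and at 9.71, 12.8 and 8.49 FPKM in the diestrus veins, with full overlap and a log2 fold change of -0.08 (SE 0.26, limma adjusted p = 0.899), which was 0.03 after median-of-ratios scaling. The ligand Bmp2 stood at 1.56, 1.59 and 2.17 FPKM in estrus and at 2.29, 3.98 and 2.13 FPKM in diestrus (log2 fold change -0.43, SE 0.22, limma adjusted p = 0.430). Its diestrus replicate 3 lay between the estrus libraries. None of the 4 genes had estrus below diestrus without overlap, which 12.9% of all genes in vein had. The other 3 genes were at 0.51 FPKM or less in every vein library. The 6 vein libraries also held markers of sympathetic neurons and chromaffin cells, in which Hand2 and Gata2 are known to act. Th, the first enzyme of catecholamine synthesis, stood at 402, 173 and 174 FPKM in estrus and at 385, 287 and 367 FPKM in diestrus, and Dbh, a later enzyme, at 337 to 745 FPKM. Both were lowest in estrus replicates 2 and 3, as Hand2 and Gata2 were, and the part of these cells in the levels was not tested. In the uterus Th was at 0.21 FPKM or less and Dbh at 1.66 FPKM or less.

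Whether the phases differed more in uterus than in vein was tested as an interaction over their 12 libraries. None of the 7 genes and 0 of the 14691 genes tested (0%) were called, while 694 had an unadjusted p under 0.05 in limma. These libraries come from shared mice and the fit had no term for the mouse. With the number within a phase taken as 1 mouse, 0 of the 7 genes were called as well. Among the 4 genes that passed the filter in vein, the differences of uterus minus vein were -1.01 (SE 0.68) for Sox17, -0.99 (SE 0.69) for Hand2 and -0.95 (SE 0.58) for Gata2, each with an adjusted p of 0.874, and 0.22 (SE 0.32, adjusted p = 0.910) for Bmp2. Calb1, Il13ra2 and Areg were below the filter in vein, so their values of -2.30 (SE 1.22), -2.00 (SE 0.79) and 0.29 (SE 1.11) mostly restate uterus. The same holds for Il13ra2 in the fit of all 90 libraries, which called it (adjusted p = 0.000173) with 2.53% of the genes.

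Across the 15 tissues the 7 genes differed in where they were abundant, and the levels are given as mean ± SD over the 6 libraries of a tissue. Sox17 and Gata2 were highest in uterus, Hand2 in vein and heart, Calb1 in kidney, uterus and brain, and Areg and Bmp2 in stomach and duodenum. Il13ra2 had its 3 highest means in uterus, ovary and spleen. Each tissue was set against uterus, and against its neighbour in the order of the means, by limma over all 90 libraries with a term for phase and the same limits for a call. This fit treats libraries of shared mice as independent, and with the number within a phase taken as 1 mouse the numbers of member calls against uterus (62 and 9 below) were equal. Over the 14 other tissues, uterus was called higher in 62 of the 98 comparisons of a member with a tissue, lower in 9, and neither in 27. When a uterus library or BAT estrus replicate 3 was left out, the calls ranged from 50 to 75 with uterus higher and from 9 to 10 with uterus lower.

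Uterus was called higher for 5 of the 7 genes against aorta, WAT, kidney, spleen, heart, BAT, skeletal muscle and liver. The shares of all 17290 genes called that way were 16.6%, 19.7%, 19.5%, 17.2%, 29.6%, 33.4%, 42.2% and 44.8%, in that order. It was called higher for 4 against ovary, stomach, duodenum and cerebrum, where the shares of all genes were 7.77%, 16.7%, 22.5% and 25.2%. Against vein and hypothalamus it was called higher for 3, beside 12.7% and 20.8% of all genes. Sox17 and Gata2 belonged to these genes in every tissue, and Hand2 in all but vein and heart.

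In the other direction, uterus was called lower for 2 genes, Areg and Bmp2, against stomach (7.83% of all genes) and duodenum (10.3%). It was lower for Bmp2 alone against ovary (9.13%), liver (7.87%) and spleen (11.8%), and for Hand2 alone against vein (13.7%) and heart (10.1%). No member was called lower in uterus than in aorta, BAT, WAT, kidney, skeletal muscle, cerebrum or hypothalamus, where the shares of all genes were 10.7%, 9.14%, 8.04%, 11.1%, 7.41%, 17.5% and 19.4%.

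Sox17 was called higher in uterus than in all 14 other tissues, and its lowest uterus library, at 31.6 FPKM, exceeded the highest of the 84 libraries from elsewhere, an ovary library at 20.2 FPKM. Its mean was 125 ± 77.2 FPKM in uterus. WAT followed with 11 ± 1.66 FPKM, a log2 difference of 3.15 from uterus (SE 0.29, limma adjusted p = 3.03e-16). Vein (10.1 ± 2.54), ovary (9.38 ± 5.33), aorta (8.77 ± 0.958), BAT (8.46 ± 5.64), heart (6.47 ± 1.01) and kidney (5.32 ± 0.524) came next. Spleen, skeletal muscle, hypothalamus, cerebrum and liver lay between 3.71 and 1.08 FPKM, and stomach and duodenum near 0.6. No neighbours below uterus in this order were called apart.

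Gata2, which also serves blood stem cells and endothelium, was highest in uterus as well, with 104 ± 64.5 FPKM. Vein came second with 34.0 ± 8.28 FPKM, called lower than uterus (log2 difference 1.36, SE 0.30, limma adjusted p = 4.81e-05) and higher than kidney, the next tissue (11.8 ± 1.74 FPKM, log2 difference 1.43, adjusted p = 2.38e-05). Aorta, heart, BAT, WAT and ovary had means of 9.61 to 4.46 FPKM, and the remaining 7 tissues had 3.04 FPKM or less, down to 0.44 ± 0.172 in liver. None of these neighbours were called apart. Uterus and vein overlapped in single libraries, since the estrus uterus at 31.1 FPKM lay below vein estrus replicate 1 at 41.7 FPKM.

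Hand2, needed for the heart and for sympathetic neurons as well as the uterine stroma, was highest in vein (76.5 ± 23.5 FPKM) and heart (66.9 ± 9.63), which were not called apart (log2 difference 0.14, SE 0.36, limma adjusted p = 0.776). Uterus followed with 22.7 ± 23.0 FPKM, called lower than both and higher than the other 12 tissues (10 without uterus diestrus replicate 3, and 9 in the estrus libraries alone). Against heart the log2 difference was -1.93 (SE 0.36, limma adjusted p = 1.62e-06), and against stomach, the next tissue, it was 1.07 (SE 0.36, adjusted p = 0.00668). Heart was even between libraries, from 51.5 to 80.4 FPKM. Stomach (11.3 ± 13.4) and duodenum (6.16 ± 8.54) owed their means to estrus replicate 1, at 38.0 and 23.5 FPKM, against 1.48 to 9.74 FPKM in the other 10 libraries of these tissues. In those 2 libraries the smooth muscle list stood at 6800 and 2500 FPKM, against 329 to 2310 in the other stomach libraries and 240 to 635 in the other duodenum libraries, and its part in the Hand2 values was not tested. Liver held 6.22 ± 1.04 FPKM, aorta 2.83 ± 1.26 and spleen 1.32 ± 0.573, and the other 7 tissues had means of 0.4 FPKM or less.

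Areg was a gene of stomach (27.8 ± 8.32 FPKM) and duodenum (21.5 ± 19.5 FPKM), which were not called apart (log2 difference 0.62, SE 0.29, limma adjusted p = 0.0703). Duodenum estrus replicate 1 was the highest library, at 60.6 FPKM. Uterus followed with 2.34 ± 3.48 FPKM, 3.04 below duodenum on the log2 scale (SE 0.29, adjusted p = 1.27e-15), and no later neighbours were called apart. Against 6 tissues uterus was called higher, but this rested on the libraries numbered 3: the count was 0 without estrus replicate 3, 0 without diestrus replicate 3 and 10 without estrus replicate 1. Areg was listed at 0 in all 6 libraries of liver, kidney and WAT.

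Bmp2 was likewise highest in stomach (21.9 ± 5.17 FPKM) and duodenum (14.2 ± 5.14), followed by ovary (13 ± 1.64), where it is known from granulosa cells. Only ovary and liver (5.81 ± 2.02 FPKM) were called apart among its neighbours (log2 difference 1.09, limma adjusted p = 1.08e-06). Uterus came at rank 11 with 1.14 ± 0.216 FPKM and was called lower than stomach, duodenum, ovary, liver and spleen, and against the other 9 tissues it was not called. Vein held 2.29 ± 0.885 FPKM, and the log2 difference of -0.59 between uterus and vein stayed under the limit of 1. Aorta estrus replicate 1 stood at 7.57 FPKM against 1.2 to 1.98 in the other aorta libraries. That library also had a smooth muscle sum of 15900 FPKM against 1700 to 2530, whose part was not tested.

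Il13ra2 had means of 2.44 ± 4.68 FPKM in uterus, 2.13 ± 0.757 in ovary and 1.31 ± 0.23 in spleen, and of 0.163 FPKM or less in the other 12 tissues. None of these neighbours were called apart. Spleen lay 0.99 above hypothalamus, the next tissue, on the log2 scale (SE 0.22, limma adjusted p = 3.49e-05), just under the limit of 1. Uterus exceeded ovary by its mean but not on the log2 scale (-0.54, SE 0.22, limma adjusted p = 0.033, under the limit of 1). In ovary it was even across the phases, at 2.41, 2.64 and 0.88 FPKM in estrus and 3.05, 1.86 and 1.92 FPKM in diestrus. The number of tissues called lower than uterus was 4, and it moved with the libraries used. It was 12 in the diestrus libraries alone, 0 in the estrus libraries alone, 0 without uterus diestrus replicate 3, and 12 whenever 1 of the estrus libraries of uterus was left out.

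Calb1 was highest in kidney (177 ± 68.6 FPKM), where it serves calcium reabsorption in the distal nephron, and in uterus (166 ± 131), and the log2 difference of 0.70 between them was not called (SE 0.42, limma adjusted p = 0.136). Hypothalamus (68.0 ± 4.71 FPKM) and cerebrum (43.9 ± 6.18), where Calb1 marks groups of neurons, came next, and hypothalamus was not called apart from uterus (adjusted p = 0.202). Uterus was called higher than the other 12 tissues, and than 11 to 13 tissues when a uterus library or BAT estrus replicate 3 was left out. Cerebrum was among the 12, yet uterus estrus replicate 1, at 6.21 FPKM, lay below every cerebrum library (36.2 to 54.6 FPKM). The brain libraries were even, while kidney ran from 93.7 to 300.3 FPKM, with the lowest and highest values in diestrus. The marker Slc12a3 of the distal tubule was lowest and highest in those same kidney libraries, at 156 and 364 FPKM. Cerebrum and ovary were called apart (log2 difference 3.44, adjusted p = 1.14e-11), as were ovary and WAT (1.54, adjusted p = 0.00082). Ovary held 1.21 to 2.47 FPKM in 5 libraries and 46.9 FPKM in estrus replicate 3, the library with Ovgp1, which was also the highest ovary library for Sox17, Gata2, Hand2 and Areg. All tissues after ovary had means of 0.622 FPKM or less.

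**Figure D3:**
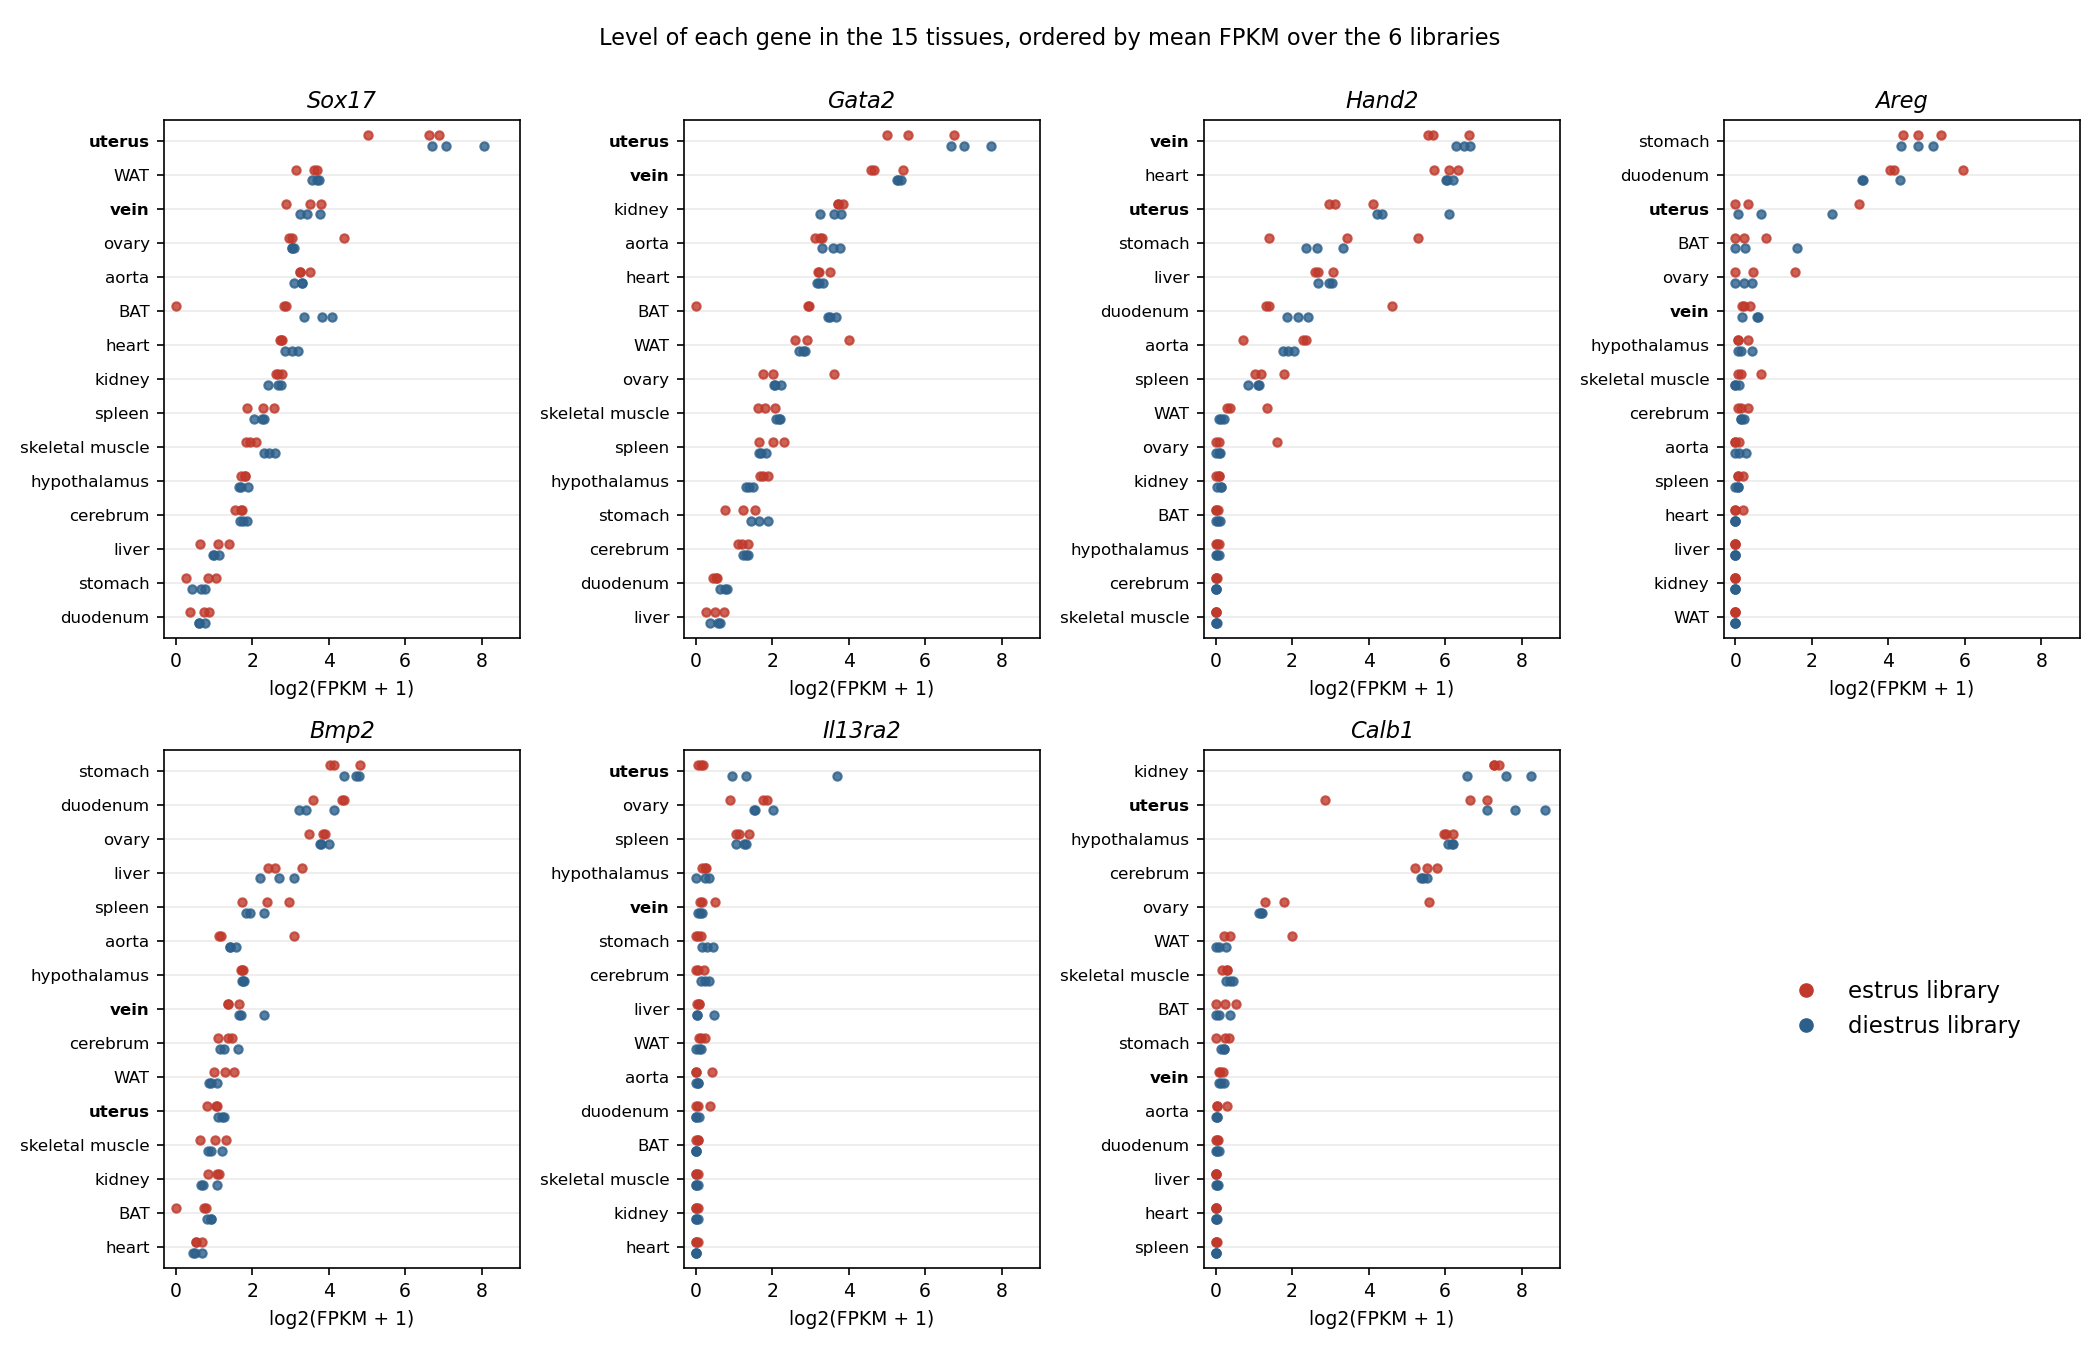
Level of each gene as log2(FPKM + 1) in the 90 libraries, with the 15 tissues ordered by their mean FPKM, estrus in red and diestrus in blue. All uterus libraries of Sox17 lie above every other library, while Hand2 leads in vein and heart, Areg and Bmp2 in stomach and duodenum, and Calb1 in kidney and uterus.

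The genes most like each member across the tissues were named by Pearson's r over the 15 tissue means of log2(FPKM + 1), among 17288 genes. Such an r is a description, since the means share libraries and a single high tissue can set it. Sox17 and Gata2 were among each other's closest genes (r = 0.907). Sox17 was further closest to Msx1 (0.881) and Twist2 (0.880), and Gata2 to Edn1 (0.910) and Chst7 (0.901). Hand2 had no gene above 0.791, reached by Pirt, followed by Ackr4 (0.748) and Tbx20 (0.746). Areg was close to Spaca4 (0.996), Fam83e (0.994) and Fam3b (0.992). Bmp2 was closest to Nipal1 (0.931), Slc12a8 (0.901) and 2200002J24Rik (0.862), Il13ra2 to Cklf (0.952), Ptprv (0.946) and Fndc7 (0.938), and Calb1 to Cldn10 (0.979), Slco4c1 (0.962) and Tchh (0.950). Among the members themselves, Areg and Bmp2 had an r of 0.725, and Bmp2 had negative ones with Sox17 (-0.502) and Gata2 (-0.505).

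Over all 15 tissues, 57 of the 105 pairs of a gene and a tissue passed the filter, 13 tissues each for Sox17 and Gata2, 12 for Bmp2, 8 for Hand2, 5 for Calb1 and 3 each for Areg and Il13ra2. The phase test of limma called 0 of the 57 pairs, where the 15 tissues together had 2 genes called, 1 in spleen (0.00798% of its genes) and 1 in skeletal muscle (0.00936%), neither of them a member. The phases did not overlap in 10 of the 57 pairs, 8 with estrus lower and 2 with estrus higher, which counts the 3 of the uterus. Il13ra2 and Bmp2 in uterus passed the filter through diestrus, so the count holds pairs that are given as values only. Over all genes and tissues, 9.31% of the tested pairs had estrus lower without overlap and 5.66% had it higher. None of the pairs in aorta, cerebrum, duodenum, kidney, liver, spleen, stomach, vein or WAT were among them.

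In skeletal muscle, Sox17 stood at 2.84, 3.26 and 2.58 FPKM in estrus and at 4.42, 3.95 and 5.01 FPKM in diestrus. Its log2 fold change of -0.49 had a small error (SE 0.11) and an adjusted p of 0.101 in limma. Gata2 stood at 3.19, 2.51 and 2.11 FPKM in estrus and at 3.27, 3.63 and 3.54 FPKM in diestrus (log2 fold change -0.32, SE 0.12, adjusted p = 0.194). Estrus lay below diestrus without overlap in 21.9% of all genes tested in this tissue. The endothelium list stood at 55.1 to 84.2 FPKM in estrus and at 90 to 93.9 FPKM in diestrus, and its part was not tested.

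Sox17 was also lower without overlap in heart, at 5.7, 5.6 and 5.89 FPKM in estrus and 7.22, 6.24 and 8.15 FPKM in diestrus (log2 fold change -0.28, SE 0.10, limma adjusted p = 0.793), as were 3.84% of all genes there. In BAT, Sox17 stood at 6.07, 6.42 and 0 FPKM in estrus and at 13.1, 9.31 and 15.9 FPKM in diestrus, and Gata2 at 6.62, 6.76 and 0 FPKM against 10.07, 10.39 and 11.8 FPKM. The zeros are those of the library with 12048 genes at 0. The log2 fold changes were -1.85 (SE 0.81, limma adjusted p = 0.409) for Sox17 and -1.59 (SE 0.81, adjusted p = 0.470) for Gata2 and became -0.90 and -0.61 without that library. Estrus lay below diestrus without overlap in 18.1% of all genes tested in BAT. The fit of all 90 libraries called both in BAT (adjusted p = 0.000293 and 0.00142), with 8.96% of the genes.

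Estrus was higher without overlap for 2 pairs. Gata2, which is also a factor of inhibitory neurons, stood in hypothalamus at 2.71, 2.4 and 2.24 FPKM in estrus and at 1.47, 1.62 and 1.84 FPKM in diestrus. The difference of 0.38 (SE 0.10) had an adjusted p of 0.235 in limma, and 9.96% of all genes there had estrus higher without overlap. Calb1 in ovary stood at 1.45, 2.47 and 46.9 FPKM in estrus and at 1.21, 1.28 and 1.32 FPKM in diestrus. Its log2 fold change of 1.71 (SE 1.03, adjusted p = 0.846) rested on estrus replicate 3 and was 0.36 without it, and 8.13% of all genes in ovary had estrus higher without overlap.

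**Figure D4:**
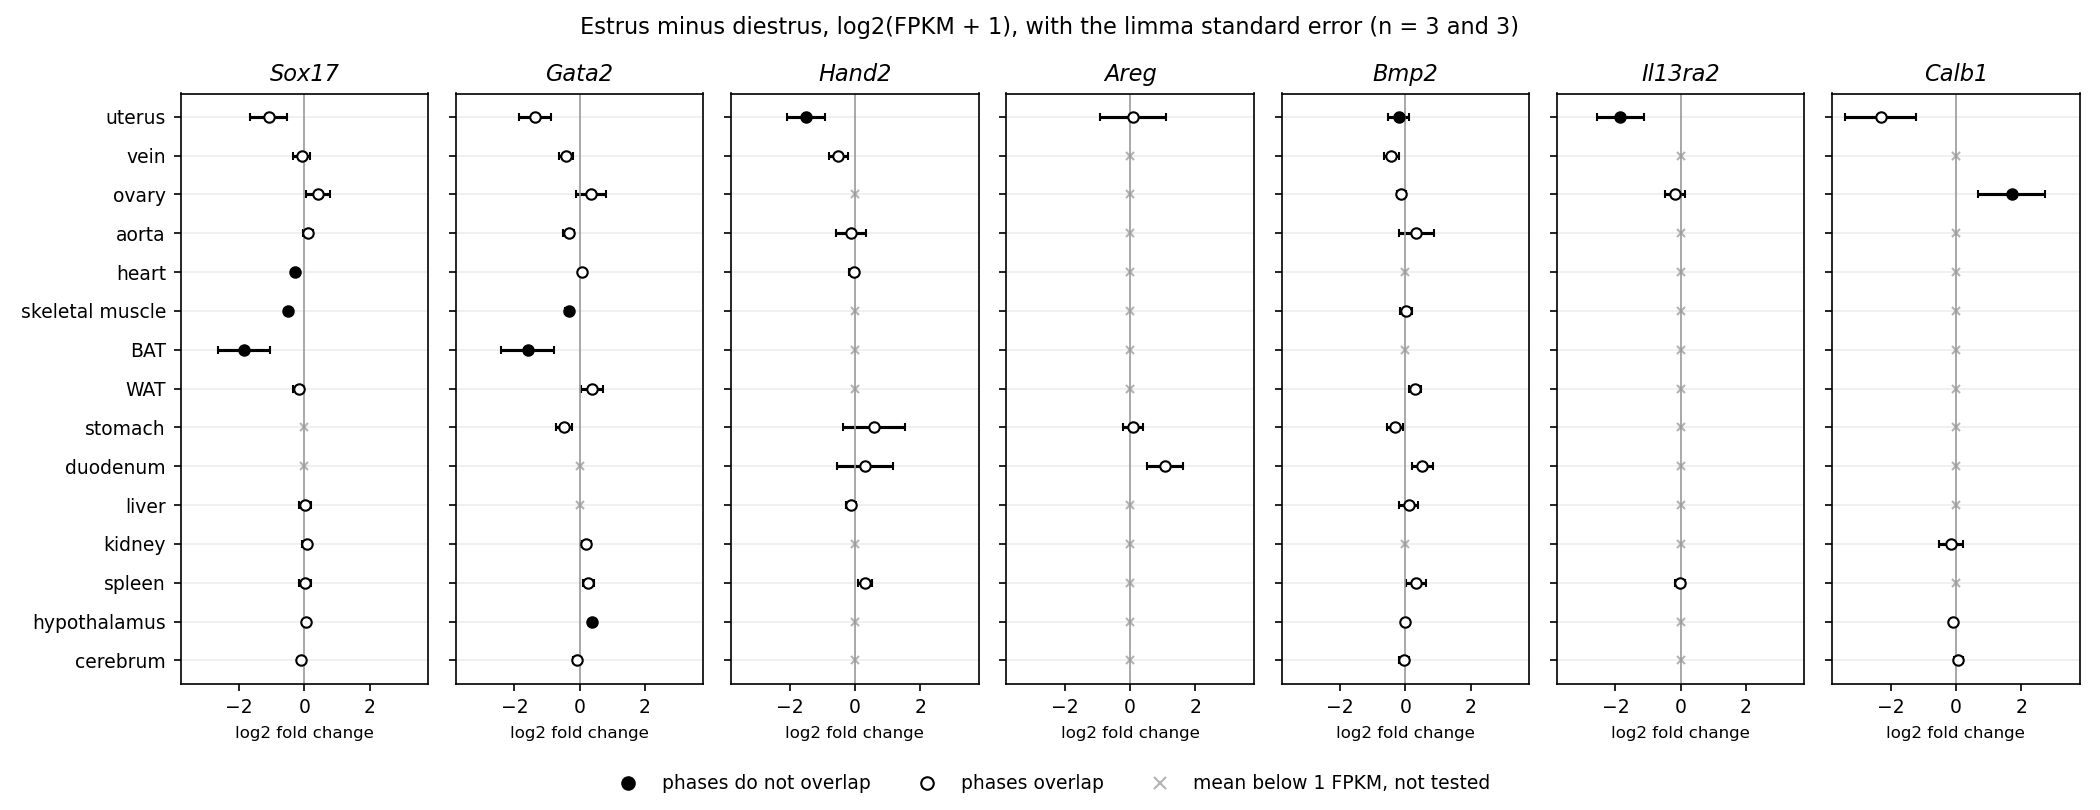
Log2 fold change of estrus against diestrus on the log2(FPKM + 1) scale with its limma standard error, for each gene in each tissue that passed the filter, filled where the phases do not overlap and crossed where the mean was below 1 FPKM. The values furthest below 0 are those of Calb1 (-2.31) and Il13ra2 (-1.85) in uterus and of Sox17 (-1.85) in BAT, and no point was called.

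The receptors and partners of the 7 genes were described in uterus from lists chosen with earlier results of these data known, and 0 genes of any list were called there or in vein. Of the progesterone pathway list, 32 of 34 genes were tested in uterus, 9 above and 23 below 0, with a median log2 fold change of -0.37 against -0.07 for all genes. Pgr itself, the progesterone receptor, stood at 11.6, 68.8 and 10.25 FPKM in estrus and at 53.5, 98.7 and 32.7 FPKM in diestrus (log2 fold change -1.40, SE 0.76, limma adjusted p = 0.897). As for Gata2, estrus replicate 2 was the estrus library within the range of diestrus. The furthest from 0 were Prap1, a secreted protein of the epithelium, at 4.11 (SE 1.85), Lrp2, an endocytic receptor, at -3.98 (SE 0.73), and Acod1, the enzyme that makes itaconate, at -3.72 (SE 0.66). Prap1 stood at 7050, 188 and 904 FPKM in estrus and at 90.6, 482 and 4.3 FPKM in diestrus, so its phases overlapped. Lrp2 stood at 0.26, 4.13 and 1.81 FPKM in estrus and at 14.7, 54.6 and 81.0 FPKM in diestrus. Acod1 stood at 0.14, 3.67 and 5.6 FPKM in estrus and at 27.0, 51.5 and 54.1 FPKM in diestrus. Both were clear of overlap, as were 4 more genes of the list with estrus lower and 2 with estrus higher (Cebpb and Lifr, named after their values were seen), where 4.67% and 3.25% of all genes had such values. In vein, 22 genes of this list were tested, with a median of -0.13 against -0.10 for all genes, and Pgr was at 1.68 FPKM or less.

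Among the partners of Areg, 7 of 12 genes of the EGF family list were tested in uterus, with a median log2 fold change of 0.27. The receptor Egfr was at 8.92, 4.52 and 3.52 FPKM in estrus and at 4.87, 11.8 and 10.38 FPKM in diestrus, so its phases overlapped. The furthest from 0 were the ligand Btc at 0.63, Egfr at -0.60 and the receptor Erbb2 at 0.43. Of the BMP pathway list, 19 of 21 genes were tested, with a median of -0.35. The receptors of Bmp2 had log2 fold changes of -0.01 (SE 0.33) for Bmpr1a, 0.77 (SE 0.74) for Bmpr1b and -0.27 (SE 0.27) for Bmpr2, and the receptors Acvr1, Acvr2a and Acvr2b had 0.01, 0.06 and 0.20. The furthest from 0 were the ligand Bmp7 at -1.42 and the secreted antagonists Nog at -1.38 and Fst at -1.14. The 3 tested genes of the interleukin 13 list were the signalling receptors Il13ra1 (0.44, SE 0.36) and Il4ra (-0.04, SE 0.31) and the factor Stat6 (0.32, SE 0.27), while Il13 and Il4 were below the filter.

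Of the calcium transport list, 5 of 7 genes were tested, with a median of 0.27. S100g, the other calbindin of the uterus, stood at 59.3, 100.4 and 77.8 FPKM in estrus and at 180, 528 and 722 FPKM in diestrus, without overlap (log2 fold change -2.39, SE 0.52, limma adjusted p = 0.897). The channel Trpv6 went the other way, at 244, 7.51 and 84 FPKM in estrus and at 5.36, 10.13 and 4.47 FPKM in diestrus (2.95, SE 1.13, adjusted p = 0.897), and the phases overlapped. The vitamin D receptor Vdr followed at 0.69. In the list of related transcription factors, 4 of 10 were tested in uterus, with Sox18 at -0.82, Sox7 at 0.77 and Gata6 at 0.51 furthest from 0. In vein the medians of these other lists lay below that of all genes (-0.10), some of them over few tested genes. They were -0.29 for the EGF family (8 genes tested), -0.30 for the BMP pathway (17) and -0.37 for interleukin 13 (3). Calcium transport (3) had -0.28 and the related factors (7) had -0.40. Of all genes tested in vein, 67% had a log2 fold change below 0.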

How the data were processed

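RNA of 90 libraries was made with an unstranded kit and sequenced on the BGISEQ-500. The authors filtered reads with SOAPnuke, aligned them to GRCm38.p5 transcripts with Bowtie2 2.2.5, estimated abundance with RSEM 1.2.8 and deposited FPKM values, without counts, so the count test of the study's methods was not run. FPKM were used as deposited. The study's methods give an approximate read number per sample, and totals of single libraries were not used here.

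Tissue, phase and replicate number came from the labels, which do not say which libraries share a mouse, and p-values measure the spread between these libraries only. The tests were those of limma (version 3.58.1, under R 4.3.3), with the prior spread following the mean level, on log2(FPKM + 1) over all genes with a mean of 1 FPKM or more, and p-values were adjusted by Benjamini-Hochberg within each comparison. Other steps used Python 3.11.15, pandas 2.3.3, numpy 2.4.6 and matplotlib 3.10.9. Symbols were looked up by identifier in RefSeq (GRCm38.p6), which named 20265 genes and left 149 unnamed. For each tissue, the deviations of genes from their phase mean were correlated between estrus and diestrus libraries of the same number. Single pairs exceeded 0.1, up to 0.475 in stomach. Every pair of a tissue did so in 0 of 15 tissues, so the numbers were not used as pairs.

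All members are named, along with, for each pathway list, the direct partners of a member and the 3 genes with the largest log2 fold change in uterus. The members and lists were chosen with earlier results of these data known. Alternatives were the pseudocount, the filter, median-of-ratios scaling, 1 fit of all 90 libraries, a replicate block, a robust spread, the exact permutation test and single libraries left out. Leaving out the libraries with markers of other cell types, and taking a number within a phase as 1 mouse, were added after seeing the data. The fits were tested on simulated data.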

Additional observations from a re-analysis of the deposited data

Results flagged for a closer look

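Among the pairs that passed the filter, Gata2 was the member whose phases lay apart in opposite directions in different tissues. (Hand2, lower in estrus in uterus, stood higher in estrus in WAT, where its mean of 0.4 FPKM was below the filter.) Estrus was higher in all 3 hypothalamus libraries than in any diestrus library (log2 fold change 0.38), and lower without overlap in BAT (-1.59) and in skeletal muscle (-0.32). The gap in skeletal muscle was small, from 3.19 to 3.27 FPKM. Of all genes tested, 9.96% had estrus higher without overlap in hypothalamus. Estrus was lower without overlap for 18.1% in BAT and 21.9% in skeletal muscle. The difference between the tissues was not tested. In BAT, estrus replicate 3 is the library with 12048 genes listed at 0, Gata2 among them, and the value without it was -0.61.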

How the results depend on the processing

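Across the alternatives, 247 values that answer a comparison kept their result and 17 moved, and of the values of single genes 445 kept theirs, 14 moved, 8 passed the limits and 9 changed sign. The 445 include the values of the exact permutation test, which leaves the log2 fold change as it is. They also include the counts of calls in opposite directions, marked as kept in every setting. Both were fixed in advance, so the 445 do not measure how stable the single genes were. The 247 include counts of 0 that stayed at 0 with single libraries left out. These are the members called over all tissues (90 libraries left out in turn), those called between uterus and vein (12) and the genes called in vein (6). The 247 are thus no measure of stability either. The fit of all 90 libraries moved the most: it called 7 pairs of a member and a tissue in place of 0, 913 genes in uterus and 18 in vein in place of 0, 3085 in place of 2 over the 15 tissues, and 1 member in place of 0 between uterus and vein. Over the 15 tissues, no filter on low values gave 1 called gene and the replicate block 5, and neither the block nor a number within a phase taken as 1 mouse changed a count of member calls. With single libraries left out, the genes called ranged from 0 to 2 in uterus (2 without estrus replicate 2), were 0 in vein, and ranged from 1 to 88 over the 15 tissues (88 without skeletal muscle estrus replicate 1). Signs changed for Areg in uterus, at -0.23 with a pseudocount of 0.1 and from -0.92 to 0.82 with single libraries left out, and in the difference between uterus and vein, from -0.74 to 1.00. For Sox17 in vein they changed at 0.03 with median-of-ratios scaling and from -0.28 to 0.18 with single libraries left out. The cause was not tested. The table holds no read totals of single libraries, so the counting error of values near 0 is not given, and BAT estrus replicate 3 stood apart at the low end.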
